A study of Mus musculus with 8 samples.

Results

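Potassium channel genes were read in lymphatic endothelial cells (LEC) and blood vascular endothelial cells (BEC) of the healthy mouse colon. The set was taken by name: every probe set of the array with exactly 1 annotated gene symbol that starts with Kcn, which gave 167 probe sets for 84 genes among the 18193 genes with such a symbol. The cells were separated on a flow sorter after staining for the endothelial protein CD31, the lymphatic protein podoplanin and the leukocyte protein CD45.2, and came from the same 4 C57BL/6J mice, 8 weeks old, 3 female and 1 male, untreated and with no genetic change given in the labels. Each mouse gave 1 LEC array and 1 BEC array, so there were 4 of each, and the replicate number is the mouse. How the gates were drawn is not stated in the labels, and the 4 pairs were picked by the study for the quality of their RNA and cDNA. Values are log2 signals, and a difference is LEC minus BEC on that scale.

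The Kcn genes encode the pore-forming subunits of potassium channels and some of the proteins that modify them. Voltage-gated channels open on depolarization, inward rectifiers and tandem-pore channels hold the membrane near rest, and calcium-activated channels open when calcium rises in the cell. In blood vessels, calcium-activated channels of the endothelium and inward rectifiers hyperpolarize the endothelial membrane, a signal that passes to smooth muscle through gap junctions and relaxes it. Accessory subunits (Kcne, Kcnab, Kcnip, Kcnmb) form no pore but change the gating or the surface delivery of a channel.

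Marker genes followed the labels: limma called all 5 measured lymphatic markers higher in LEC and 6 of 7 blood vascular markers lower in LEC. Prox1, the transcription factor of lymphatic fate, was between 10.91 and 11.93 on LEC arrays and between 3.22 and 4.57 on BEC arrays. Vwf, von Willebrand factor, was between 0.85 and 5.24 on LEC arrays and between 10.75 and 11.15 on BEC arrays. LEC replicate 1 stood apart from its group, with a median Spearman correlation of 0.603 to the other LEC arrays where those had 0.745 to 0.746. Markers of other cells gave signal. The summed linear signal of 10 epithelial markers ran from 346 to 9712 on LEC arrays and from 577 to 20865 on BEC arrays, with 5 to 9 markers above background in LEC, 7 to 10 in BEC, and no marker below background on all 8 arrays.

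Most potassium channel genes were above background on fewer than 3 of 4 arrays in both cell types, read by the brightest probe set of each gene. The background level of an array, 95% of the way up its 27 control probe sets for Bacillus subtilis transcripts, lay between 3.43 and 4.88 log2. On LEC arrays 1 to 4 the level was 4.88, 4.32, 3.83 and 4.01. On BEC arrays 1 to 4 it was 4.52, 3.43, 3.43 and 3.43. In LEC, 17 of the 84 genes (20.2%) lay above it on at least 3 of 4 arrays, beside 54.3% of all 18193 genes. In BEC, 25 genes (29.8%) did, beside 58.2% of all genes. On single arrays 24 to 34 Kcn genes were above background in LEC and 26 to 39 in BEC. Both cell types shared 12 genes above background, 5 more passed in LEC and 13 more in BEC, and 54 passed in neither. The LEC and BEC counts rest on unlike background levels, so they do not rank the cell types. Kcnj9, for example, counted in BEC only, though its mean was higher in LEC (4.00, and 3.52 in BEC). A value below background is not read as absence of the transcript.

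By role, 8 of 31 voltage-gated genes, 8 of 15 inward rectifiers, 4 of 12 tandem-pore genes, 4 of 8 calcium-activated and Slo genes, 5 of 15 accessory genes and 1 of 3 non-coding genes were above background on at least 3 arrays of either cell type. That is 30 of 84 (35.7%), beside 64.2% of all genes. Genes above background on all 8 arrays numbered 6. The voltage-gated Kcnc1, Kcnd3 and Kcnh3 and the inward rectifiers Kcnj1, Kcnj8 and Kcnj11 made up these 6. This holds for the brightest probe set of each gene. The other probe set of Kcnj1 was above background on 0 of 8 arrays. No other probe set of Kcnc1, Kcnd3 or Kcnj11 was above it on all 8, while another of Kcnh3 was, and Kcnj8 had 1 probe set.

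**Figure D1:**
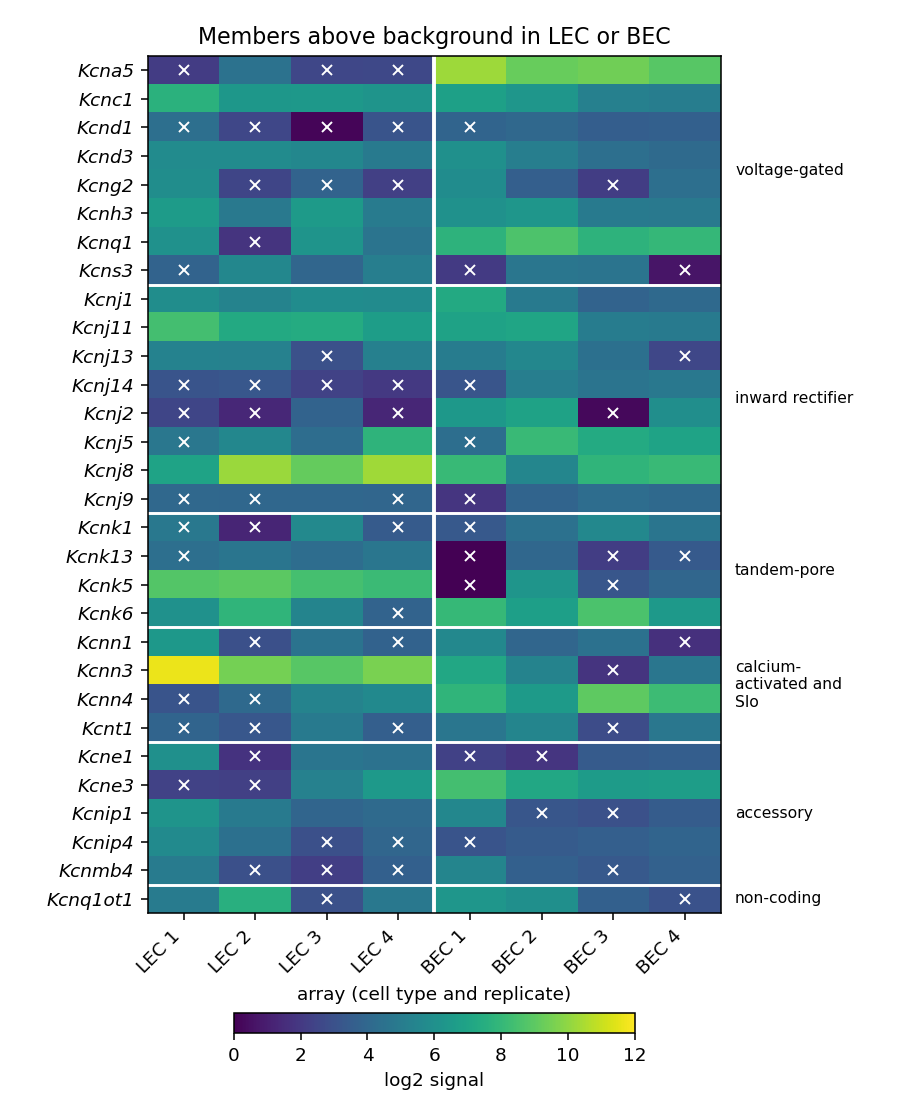
Log2 signal (colour) of the 30 Kcn genes above background on at least 3 of 4 LEC or BEC arrays. Rows are genes by role, columns are the 4 LEC and 4 BEC arrays, and a white cross marks a value at or below the background of its array. Kcna5, Kcnn4 and Kcnq1 are bright over all 4 BEC columns, Kcnn3 and Kcnk5 over all 4 LEC columns. Colours compare arrays within a row, since probe sets of different genes are not on 1 scale.

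LEC and BEC differed at 4 potassium channel genes, 2 in each direction. Kcnn3 and Kcnk5 were higher in LEC, and Kcna5 and Kcnn4 were lower in LEC. The 4 are 9.76% of the 41 Kcn genes that passed the filter on dim probe sets, and over all 13259 genes tested 4.07% were called (1.76% higher and 2.31% lower in LEC; limma, adjusted p under 0.05 by Benjamini and Hochberg). The filter kept 48.8% of Kcn genes and 72.9% of all genes, and it kept some members only for their level in 1 cell type, so the share called is a description only. With every gene tested and no filter, the same 4 of 84 genes were called, beside 2.78% of all 18193. In sorted bulk samples, fewer cells of a type and less RNA per cell cannot be told apart.

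Kcnn3, a small-conductance calcium-activated channel gene, had log2 signals of 11.67, 9.49, 8.89 and 9.61 in LEC replicates 1 to 4. In BEC replicates 1 to 4 it had 7.18, 5.36, 1.81 and 4.71. All 4 LEC arrays lay above all 4 BEC arrays, and BEC replicate 3 was below background. Kcnn3 exceeded its BEC level at least 26.8-fold in LEC (difference 5.15 ± 0.99, moderated SE; adjusted p = 0.00839 by limma, higher in 4 of 4 mice). Here and below, such a bound sets values under background to the background level of their array. It was 17.9-fold without LEC replicate 1 and 42.7-fold without BEC replicate 1, and the adjusted p ran from 3.09e-04 to 0.0355 over the alternatives.

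Kcnk5, a tandem-pore channel gene whose channel opens in alkaline medium, had 8.80, 8.98, 8.46 and 8.16 in LEC replicates 1 to 4. In BEC replicates 1 to 4 it had -0.04, 6.24, 3.21 and 3.98, with replicates 1 and 3 below background. The LEC arrays were close together and the BEC arrays far apart, without overlap. Kcnk5 was at least 16.7-fold higher in LEC (difference 5.25 ± 1.07, adjusted p = 0.0116 by limma, higher in 4 of 4 mice). Its other probe set gave a difference of 5.55 ± 0.89 and was called as well (adjusted p = 0.00226 in the limma fit of every probe set, which called 3.7% of its 23980 probe sets). The bound was 15.9-fold without LEC replicate 1 (limma, adjusted p = 0.0305). It was 12.9-fold without BEC replicate 3 and 24.7-fold without BEC replicate 2. With equal hybridisation controls the call was lost (adjusted p = 0.0547).

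Kcna5, a voltage-gated channel gene of the delayed rectifier type known from heart atrium and arterial smooth muscle, had 2.11, 4.54, 2.54 and 2.61 in LEC replicates 1 to 4. In BEC replicates 1 to 4 it had 10.26, 9.20, 9.42 and 8.88. Only LEC replicate 2 was above its background, and no value came near the other group. Kcna5 was at least 34.9-fold lower in LEC (difference -6.49 ± 0.72, adjusted p = 1.36e-04 by limma, lower in 4 of 4 mice). Its call held under all 18 alternatives (adjusted p from 1.69e-05 to 0.00213). The bound was 28.8-fold without BEC replicate 1 and 39.8-fold without LEC replicate 1. The summed signal of 10 pericyte and smooth muscle markers was also lower on every LEC array (156 to 631) than on any BEC array (852 to 1564), with 2 to 7 markers above background in LEC and 4 to 8 in BEC. Rgs5 was the 1 called marker of that list (limma, adjusted p = 0.00849). It was the brightest of them on every BEC array (9.04 to 10.04, and -0.97 to 5.55 in LEC), so the sum leans on this gene. The markers differed in direction. Pdgfrb was higher in LEC in 4 of 4 mice and Abcc9 in 3 of 4 (limma, adjusted p = 0.365 and 0.723). The smooth muscle myosin gene Myh11 was 4.24 to 6.66 in LEC and 5.72 to 6.90 in BEC (limma, adjusted p = 0.558). The smooth muscle actin gene Acta2 was 3.39 to 5.88 in LEC and 6.45 to 7.89 in BEC, with no overlap and lower in LEC in 4 of 4 mice (limma, adjusted p = 0.155). The part of these cells in the result was not tested.

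Kcnn4, the intermediate-conductance calcium-activated channel gene of endothelium, lymphocytes and colon crypts, had 3.10, 4.12, 5.38 and 5.67 in LEC replicates 1 to 4. In BEC replicates 1 to 4 it had 7.83, 6.55, 9.00 and 8.24. The groups did not overlap, and LEC replicates 1 and 2 were below background. Kcnn4 was at least 7.17-fold lower in LEC (difference -3.34 ± 0.79, adjusted p = 0.0288 by limma, lower in 4 of 4 mice). The call was lost in 6 of 18 alternatives: the adjusted p was 0.0527 without LEC replicate 1, 0.0757 without LEC replicate 2, and 0.0692, 0.102 and 0.0932 without BEC replicates 1, 3 and 4. Its other probe set gave -1.80 and was not called (adjusted p = 0.507), and the mean of both probe sets gave an adjusted p of 0.0660. The sum of 8 leukocyte markers ran from 108 to 274 on LEC arrays and from 85.1 to 260 on BEC arrays, with 3 to 4 markers above background in LEC, 3 to 5 in BEC, and 0 called.

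**Figure D2:**
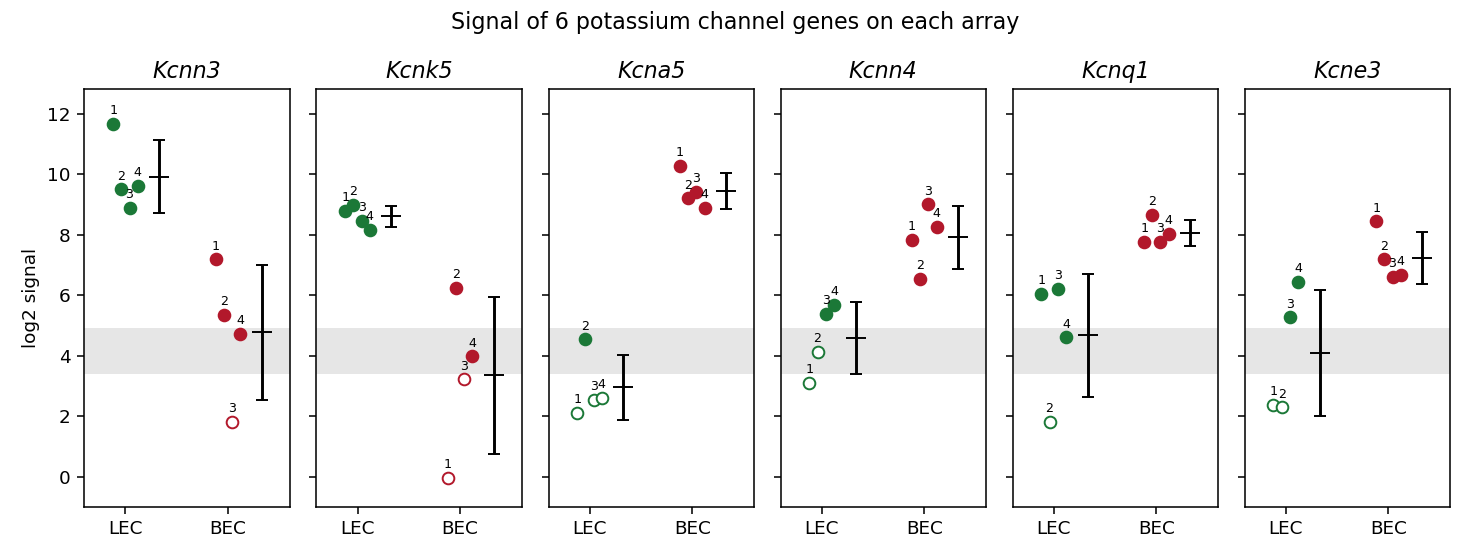
Log2 signal of Kcnn3, Kcnk5, Kcna5, Kcnn4, Kcnq1 and Kcne3 on each array, with LEC left of BEC. Numbers at the points are mice, open points lie at or below the background of their array, the grey band is the range of background levels (3.43 to 4.88), and the black marks are mean ± SD (n = 4). All 4 LEC points lie above all BEC points for Kcnn3 and Kcnk5, and below them for the other genes.

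Kcnn3 and Kcnn4 belong to the same subfamily and differed in opposite directions. The remaining members, Kcnn1 and Kcnn2, had differences of 0.48 ± 1.05 and 0.75 ± 0.98 and were not called (adjusted p = 0.899 and 0.807). Kcnn2 had 5.34, 3.71, 4.16 and 2.56 in LEC replicates 1 to 4 and 2.81, 3.87, 1.74 and 4.35 in BEC replicates 1 to 4, with 2 arrays of each cell type above background. The large-conductance channel gene Kcnma1 had 1.97, 2.92, 4.64 and 3.44 in LEC replicates 1 to 4 and 4.90, 2.05, 3.01 and -1.26 in BEC replicates 1 to 4. Its smooth muscle subunit gene Kcnmb1 had 1.80, 2.20, 2.96 and 4.26 in LEC replicates 1 to 4 and 4.44, 3.45, 0.68 and 3.13 in BEC replicates 1 to 4. By the probe set taken for each, neither passed the filter, each was above background on 1 LEC array and 1 BEC array, and their groups overlapped. Another Kcnma1 probe set was above background on 3 LEC arrays and 0 BEC arrays, and the other Kcnmb1 probe set on 2 LEC arrays and 1 BEC array. Kcnt1, a sodium-activated channel gene, averaged 3.91 in LEC and 4.43 in BEC (limma, adjusted p = 0.860).

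The 4 called genes are shown with the 300 bases around their RefSeq transcript start (250 before, 50 after), because these members separate the cell types. RefSeq held a promoter for 64 of the 84 genes. Capitals mark matches, on either strand, to 6 short motifs that were searched for: GGGCGG (GC box), TATAAA (the core promoter box), CCGGAA (ETS factors), TGGGAA (RBPJ, the Notch effector), AGGTCA (nuclear receptor half-site) and CACGTG (E-box). No matches overlap one another in these windows. On GRCm38.p6 they lie at chr3:89519914-89520213 (plus strand, Kcnn3), chr14:20181733-20182032 (minus strand, Kcnk5), chr6:126535506-126535805 (minus strand, Kcna5) and chr7:24370013-24370312 (plus strand, Kcnn4), and each is printed 5′ to 3′ on the strand of its gene.
Kcnn3: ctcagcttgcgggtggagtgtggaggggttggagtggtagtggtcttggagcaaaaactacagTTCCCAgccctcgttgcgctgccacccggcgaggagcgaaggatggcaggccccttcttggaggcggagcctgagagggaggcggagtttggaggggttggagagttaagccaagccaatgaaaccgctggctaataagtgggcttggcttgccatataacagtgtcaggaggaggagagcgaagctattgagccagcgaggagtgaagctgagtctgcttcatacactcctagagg
Kcnk5: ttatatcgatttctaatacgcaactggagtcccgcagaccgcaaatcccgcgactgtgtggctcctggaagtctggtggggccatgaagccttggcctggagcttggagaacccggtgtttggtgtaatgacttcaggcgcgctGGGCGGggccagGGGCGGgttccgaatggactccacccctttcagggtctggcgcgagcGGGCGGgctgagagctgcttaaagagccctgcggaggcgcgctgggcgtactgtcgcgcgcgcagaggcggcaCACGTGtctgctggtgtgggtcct
Kcna5: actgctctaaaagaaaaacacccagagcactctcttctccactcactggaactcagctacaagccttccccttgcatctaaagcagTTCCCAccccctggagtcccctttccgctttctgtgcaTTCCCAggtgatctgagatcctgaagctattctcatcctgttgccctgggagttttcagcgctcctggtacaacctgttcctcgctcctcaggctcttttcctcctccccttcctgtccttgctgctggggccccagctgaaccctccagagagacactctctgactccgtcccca
Kcnn4: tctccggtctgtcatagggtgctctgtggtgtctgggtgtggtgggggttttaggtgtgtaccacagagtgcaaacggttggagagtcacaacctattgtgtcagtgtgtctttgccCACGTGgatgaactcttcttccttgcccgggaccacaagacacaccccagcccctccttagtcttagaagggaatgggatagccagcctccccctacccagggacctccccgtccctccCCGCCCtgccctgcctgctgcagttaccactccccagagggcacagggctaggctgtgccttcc
The Kcnk5 window held 3 GC boxes, starting at -106, -94 and -47 from the transcript start, and an E-box at 27. The Kcnn4 window held 1 GC box at -14 and an E-box at -133. TGGGAA was found on the reverse strand at -164 and -126 in the Kcna5 window and at -187 in the Kcnn3 window. GC content was 63.7% for Kcnk5, 57.7% for Kcnn3, 59.7% for Kcnn4 and 55.0% for Kcna5. Of all 32851 promoter windows, 35.7% held a GC box, 25.6% TGGGAA, 7.15% the E-box, 16.3% AGGTCA, 14.9% CCGGAA and 13.6% TATAAA. A match is a description of these letters only.

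Among voltage-gated genes, Kcnq1 lay next to the threshold. Kcnq1 forms a voltage-gated pore that works with Kcne1 in heart and with Kcne3 in colon crypts. It had 6.05, 1.82, 6.20 and 4.61 in LEC replicates 1 to 4, and 7.75, 8.66, 7.77 and 8.01 in BEC replicates 1 to 4. The groups did not overlap (difference -3.38 ± 0.90, lower in LEC in 4 of 4 mice), but the adjusted p was 0.0557 by limma. It was under 0.05 in 7 of 18 alternatives, 0.0374 without LEC replicate 1 and 0.0355 without LEC replicate 3 among them. LEC replicate 2 was the 1 Kcnq1 value below background.

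Kcne3, whose protein holds the Kcnq1 channel open, had 2.38, 2.29, 5.26 and 6.44 in LEC replicates 1 to 4 and 8.43, 7.18, 6.59 and 6.67 in BEC replicates 1 to 4. The groups did not overlap, though LEC replicate 4 came just under the lowest BEC array. The difference was -3.13 ± 0.98 with an adjusted p of 0.112 by limma, and 0.0407 without LEC replicate 4. It was below 0 in 4 of 4 mice. Kcne1, the heart partner, had 6.00, 1.75, 4.67 and 4.54 in LEC replicates 1 to 4 and 2.30, 1.86, 3.44 and 3.60 in BEC replicates 1 to 4, with overlapping groups, and was not called by limma (adjusted p = 0.606).

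Kcnn4, Kcnq1 and Kcne3 are also channel genes of colon epithelium, so they are set beside the epithelial markers. The epithelial sum was 346, 1730, 9712 and 751 on LEC arrays 1 to 4 and 577, 610, 20865 and 5749 on BEC arrays 1 to 4. On LEC replicate 2 the sum leans on Car1 (10.41, and 6.05 on BEC replicate 2). The mean log2 signal of the list was 4.93, 5.01, 8.79 and 5.09 on LEC arrays 1 to 4. On BEC arrays 1 to 4 this mean was 5.19, 5.25, 10.08 and 8.05, higher than LEC in each mouse. Markers above background numbered 5, 6, 9 and 7 in LEC and 7, 9, 10 and 10 in BEC. In mice 1 and 2, where both BEC sums were low, the differences by mouse were -4.73 and -2.42 for Kcnn4 and -1.70 and -6.84 for Kcnq1. In mice 3 and 4 they were -3.62 and -2.57 for Kcnn4 and -1.56 and -3.41 for Kcnq1. For Kcne3 they were -6.06 and -4.89 in mice 1 and 2, and -1.33 and -0.24 in mice 3 and 4. Of the 10 epithelial markers, 0 were called between LEC and BEC by limma. The sum of 8 enteroendocrine markers was 155 to 689 in LEC and 170, 1852, 10493 and 20629 on BEC arrays 1 to 4, with 3 to 5 markers above background in LEC and 4 to 7 in BEC. Chgb, a secretory granule gene, was the 1 called marker of that list, at least 82.8-fold lower in LEC (limma, adjusted p = 0.00222, lower in 4 of 4 mice). On BEC arrays 2 to 4 the brightest of the list were Chgb and Chga, so the sum leans on them. The markers differed in direction. Chga, Tph1, Sct and Insm1 also had lower means in LEC, while Cck, Gcg and Pyy had higher means in LEC. Cck was higher in LEC in 4 of 4 mice but above background on 1 LEC array only. The part of epithelial and enteroendocrine RNA in the Kcnn4, Kcnq1 and Kcne3 values was not tested.

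Kcnk1, a tandem-pore gene singled out after its values were seen, varied more between arrays of 1 cell type than between the cell types. One of its probe sets read 2.39, -0.23, 7.12 and 4.21 in LEC replicates 1 to 4 and 3.09, 0.47, 6.65 and 6.74 in BEC replicates 1 to 4. It was highest on LEC replicate 3 and on BEC replicates 3 and 4, the 3 arrays with the highest epithelial sums. Its difference was -0.86 ± 1.66 (adjusted p = 0.888 in the limma fit of every probe set). The probe set taken for the gene read 4.80, 1.23, 5.65 and 3.43 in LEC replicates 1 to 4. In BEC replicates 1 to 4 it read 3.37, 4.46, 5.58 and 4.66. By this probe set LEC replicate 1, the array with the lowest epithelial sum, read above BEC replicate 4. The part of epithelial RNA in these values was not tested.

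**Figure D3:**
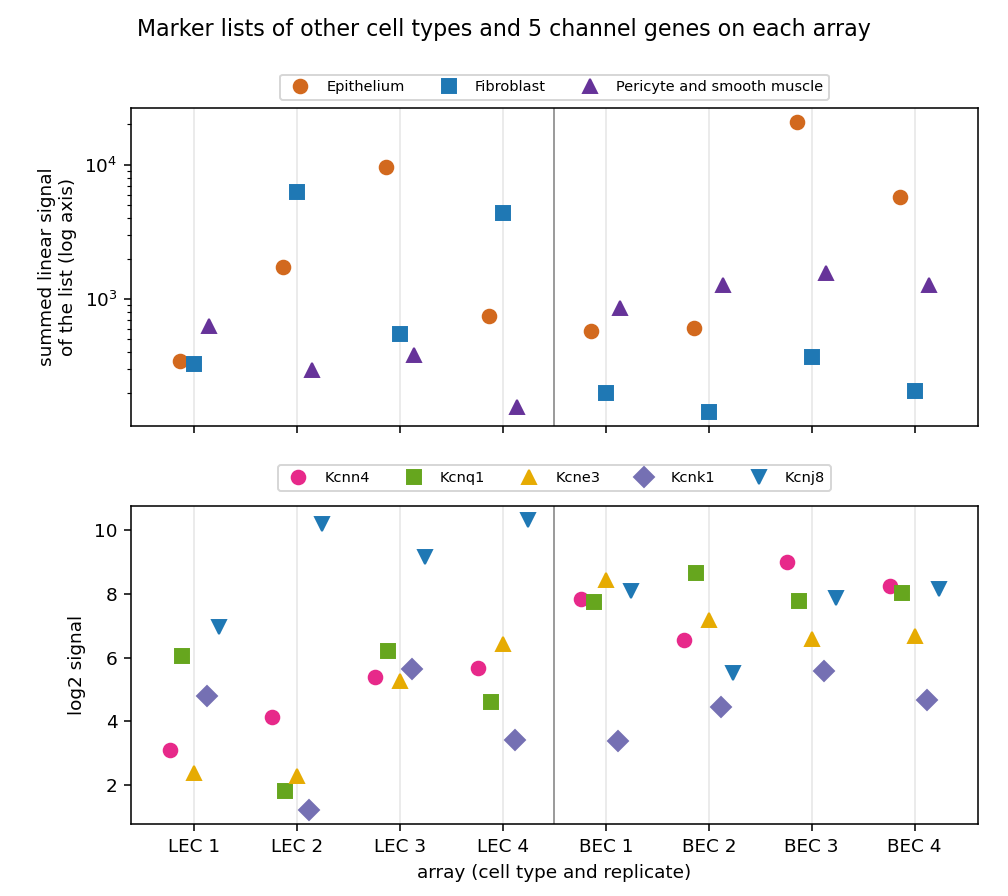
Upper panel, summed linear signal of 10 epithelial, 6 fibroblast and 10 pericyte and smooth muscle markers on each array (log axis). Lower panel, log2 signal of Kcnn4, Kcnq1, Kcne3, Kcnk1 and Kcnj8 on the same arrays, with LEC left of BEC. Epithelial sums are highest on BEC 3, LEC 3 and BEC 4, fibroblast sums on LEC 2 and LEC 4, where Kcnj8 also has its highest values.

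None of the 8 tested inward rectifiers was called by limma (all genes 4.07%), and 1 had an unadjusted p under 0.05 (all genes 14.4%). Kcnj8, the pore of the vascular ATP-sensitive channel and a gene known from pericytes, had 6.96, 10.18, 9.16 and 10.30 in LEC replicates 1 to 4 and 8.09, 5.53, 7.85 and 8.15 in BEC replicates 1 to 4. It was above background on all 8 arrays and higher in LEC in 3 of 4 mice (difference 1.74 ± 0.80, adjusted p = 0.341). The sum of 6 fibroblast markers was 326, 6247, 544 and 4365 on LEC arrays 1 to 4, with 2 to 6 markers above background. On BEC arrays it ran from 144 to 372, with 3 to 5 above background. The highest Kcnj8 values fell on LEC replicates 2 and 4. The pericyte and smooth muscle sum was 294 and 156 on these arrays and 852 to 1564 on BEC arrays. On BEC arrays that sum leans on Rgs5, and the markers of the list differed in direction. Pdgfrb read 4.92 and 6.16 on LEC replicates 2 and 4 and 2.54 to 3.80 on BEC arrays. Acta2 read 5.88 and 3.39 on LEC replicates 2 and 4 and 6.45 to 7.89 on BEC arrays. The part of fibroblast and pericyte RNA in the Kcnj8 values was not tested. Abcc9, which encodes the partner subunit of that channel, was 3.79 to 8.20 in LEC and 1.56 to 6.99 in BEC (adjusted p = 0.723).

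Kcnj11, the pore of the ATP-sensitive channel of pancreatic beta cells, had 8.39, 7.27, 7.39 and 6.66 in LEC replicates 1 to 4 and 6.92, 7.05, 5.04 and 4.93 in BEC replicates 1 to 4. The groups overlapped, though LEC was higher in 4 of 4 mice (difference 1.44 ± 0.72, adjusted p = 0.390 by limma). Kcnj2 encodes the strong inward rectifier with which capillary endothelium senses potassium. It had 2.49, 1.32, 3.84 and 1.29 in LEC replicates 1 to 4 and 6.42, 6.92, 0.26 and 5.91 in BEC replicates 1 to 4. BEC was above background on all arrays but replicate 3, and LEC on 1 of 4. The difference was -2.64 ± 1.38 (limma, adjusted p = 0.423), and without BEC replicate 3 it was -4.18 with an adjusted p of 0.0374. Kcnj5, a G protein-gated rectifier of heart, had 4.75, 5.53, 4.31 and 7.80 in LEC replicates 1 to 4 and 4.33, 8.15, 7.35 and 6.96 in BEC replicates 1 to 4 (limma, adjusted p = 0.683); both groups ranged widely and overlapped. Kcnj16, a kidney and brain rectifier, had 6.38, 3.00, 4.82 and 2.99 in LEC replicates 1 to 4 and 2.67, 3.58, -0.64 and 3.42 in BEC replicates 1 to 4, with 2 LEC arrays and 1 BEC array above background (difference 2.04 ± 1.20, limma adjusted p = 0.491). Kcnj14 was the 1 untested gene whose brightest probe set was above background on 3 arrays of a group, at 2.69 ± 0.61 in LEC and 4.44 ± 0.87 in BEC, and its ranges overlapped.

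Of the tandem-pore genes other than Kcnk5, Kcnk13 had 4.37, 4.68, 4.28 and 4.70 in LEC replicates 1 to 4 and -0.44, 4.00, 2.18 and 3.40 in BEC replicates 1 to 4. The groups did not overlap but the LEC values lay close to background, replicate 1 under it, and Kcnk13 was not called (difference 2.22 ± 1.06, adjusted p = 0.365). Kcnk6, a gene also expressed in vascular smooth muscle, had 6.08, 7.87, 5.41 and 3.83 in LEC replicates 1 to 4 and 8.06, 6.77, 8.59 and 6.44 in BEC replicates 1 to 4. Its groups overlapped, with LEC lower in 3 of 4 mice (difference -1.67 ± 0.86, adjusted p = 0.419 by limma). Kcnk2, a stretch-sensitive channel gene, had 4.57, 5.96, 0.94 and 0.11 in LEC replicates 1 to 4 and 3.12, -1.95, 2.51 and 3.01 in BEC replicates 1 to 4; it did not pass the filter, and LEC replicate 2 was its 1 value above background. Kcnk3, an acid-sensitive channel gene, had 1.87, 5.42, 3.46 and 5.68 in LEC replicates 1 to 4 and 4.00, 5.02, 3.34 and 1.01 in BEC replicates 1 to 4 (difference 0.77 ± 1.14, adjusted p = 0.842 by limma), with a difference of -0.01 without BEC replicate 4.

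No voltage-gated gene other than Kcna5 was called. Kcnc1, a fast delayed rectifier of neurons, had 7.64, 6.35, 6.42 and 6.22 in LEC replicates 1 to 4 and 6.84, 6.29, 5.24 and 5.08 in BEC replicates 1 to 4, with LEC higher in 4 of 4 mice and overlapping groups (difference 0.80 ± 0.68, adjusted p = 0.675 by limma). Other Kcnc1 probe sets differed in direction: 1 averaged 1.57 in LEC and 3.61 in BEC, and another 3.40 in LEC and 1.76 in BEC. By the probe set taken for each, Kcnd3 and Kcnh3 were above background on all 8 arrays, with differences of 0.59 ± 0.72 and 0.21 ± 0.75. Kcns3, a subunit that forms no channel alone and modifies others, had 3.84, 5.57, 3.97 and 5.12 in LEC replicates 1 to 4 and 2.05, 4.73, 4.61 and 0.68 in BEC replicates 1 to 4, also overlapping (difference 1.61 ± 1.06, adjusted p = 0.554 by limma). Kcnq5, a voltage-gated gene of smooth muscle and neurons, had 1.66, 2.12, 3.29 and 7.69 in LEC replicates 1 to 4 and 4.38, 2.74, 1.73 and -0.76 in BEC replicates 1 to 4. It did not pass the filter, and by the probe set taken for the gene LEC replicate 4 alone was above background. The non-coding Kcnq1ot1, transcribed antisense within the Kcnq1 locus, was 5.09 ± 1.89 in LEC and 4.75 ± 1.63 in BEC (limma, adjusted p = 0.933). The highest members of the remaining subfamilies were also uncalled or untested. Kcng2, a silent voltage-gated subunit gene, averaged 3.63 in LEC and 4.01 in BEC. The accessory genes Kcnab2, Kcnip1 and Kcnmb4 averaged 2.63, 4.79 and 3.45 in LEC and 2.82, 3.80 and 4.05 in BEC. Kcnu1, a channel gene of sperm, averaged 1.06 in LEC and 2.76 in BEC, and Kcnv1 averaged 3.29 in LEC and 1.12 in BEC. The probe set taken for each was below background on all 8 arrays, while both other probe sets of Kcnv1 passed it on 1 LEC array.

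**Figure D4:**
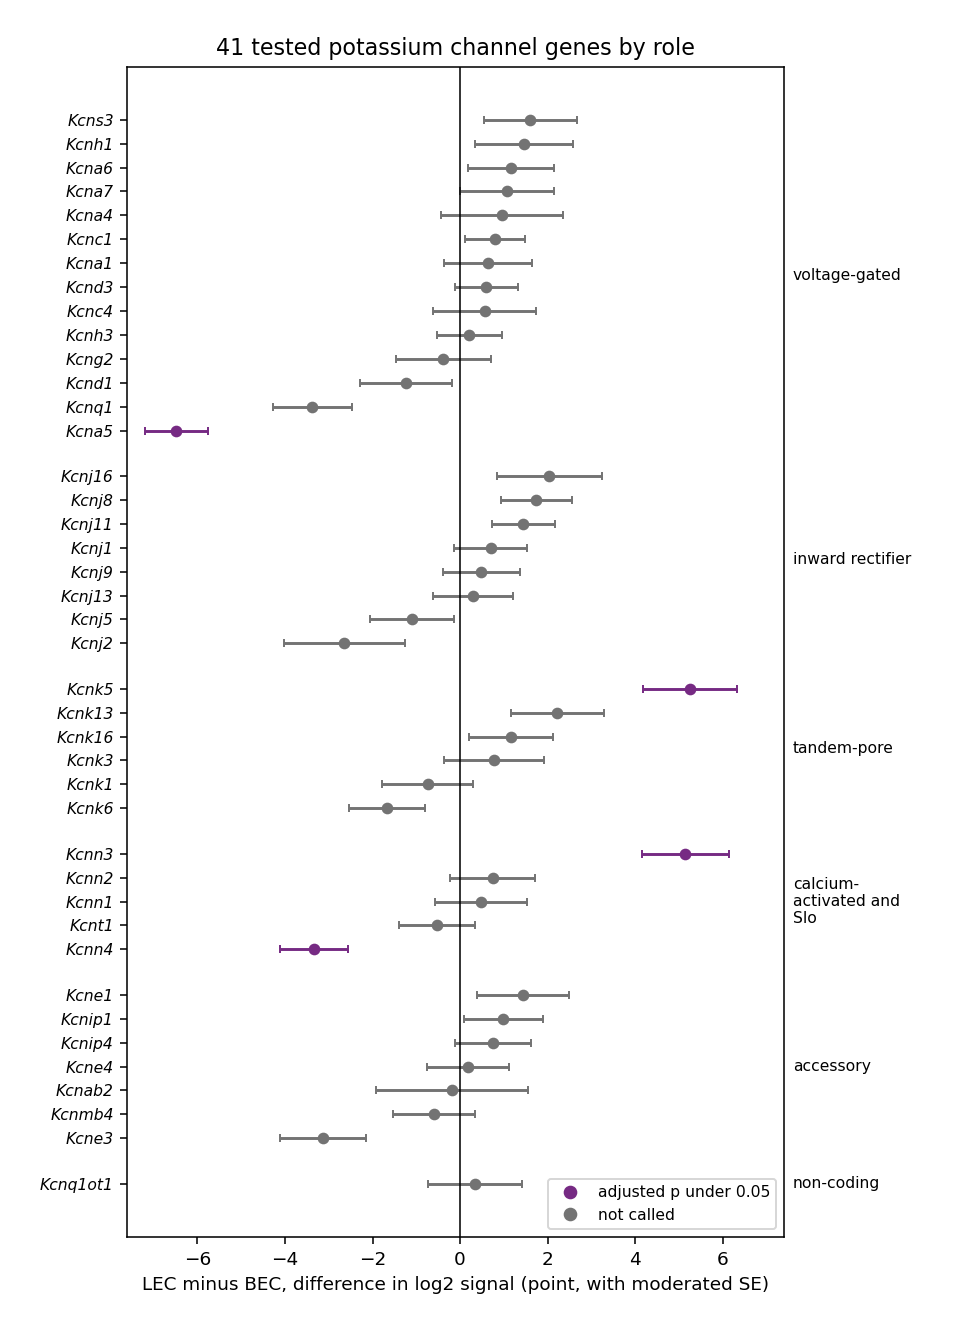
Difference in log2 signal, LEC minus BEC, of the 41 tested Kcn genes by role, with its moderated SE (bars). Purple points are the 4 called genes. Kcnn3 (5.15) and Kcnk5 (5.25) lie right of 0 and Kcna5 (-6.49) and Kcnn4 (-3.34) left of it.

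Over the 41 tested genes the median difference was 0.59, beside 0.08 over all 13259 genes, and 28 were above 0 and 13 below. With equal array medians these medians were 0.32 and -0.20, and without LEC replicate 1 they were 0.28 and 0.08. An unadjusted p under 0.05 was found for 7 of the 41 (17.1%, beside 14.4% of all genes tested). LEC and BEC did not overlap at 7 of the 41 (17.1%, beside 10.4%). Over all 84 genes LEC lay wholly higher at 4 (4.76%, beside 4.6% of all genes) and wholly lower at 5 (5.95%, beside 3.92%). Besides the called genes these were Kcnk13, Kcnq1, Kcne3, Kcnk4 and Kcnf1. By the probe set taken for the gene, Kcnk4 was below background on all 8 arrays and Kcnf1 on 7 of 8. The 43 untested genes had group means from -0.24 to 3.69 in LEC and from -0.12 to 4.44 in BEC, and by the probe set taken for the gene 17 of them were above background on no array.

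Genes that work with potassium channels but carry other names were read as 3 lists. Of 24 channel partners (sulfonylurea receptors, leucine-rich repeat, DPP and AMIGO subunits and others), 16 had a probe set and 12 were tested. Limma called 0 of the 12 (all genes 4.07%), 0 had an unadjusted p under 0.05 (all genes 14.4%), and the median difference was -0.01. Of 38 genes of calcium entry and release, whose signal opens calcium-activated channels, 34 had a probe set and 24 were tested, with 1 higher (all genes 1.76%) and 0 lower (2.31%) in LEC. At an unadjusted p under 0.05 were 5 of the 24 (all genes 14.4%), and the median difference was -0.03 (all genes 0.08). The called gene was Piezo2, a stretch-activated cation channel, at 9.10, 10.10, 10.30 and 11.30 in LEC replicates 1 to 4 and 7.54, 7.24, 7.02 and 9.01 in BEC replicates 1 to 4. Piezo2 was 5.66-fold higher in LEC (difference 2.50 ± 0.58, adjusted p = 0.0260 by limma). Its call was lost in 9 of 18 alternatives (adjusted p up to 0.205), among them all array removals but LEC replicate 1 and BEC replicate 4.

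Of 21 genes of the sodium pump and of potassium cotransport, 17 had a probe set and 16 were tested, with 2 higher (all genes 1.76%) and 0 lower (2.31%) in LEC. At an unadjusted p under 0.05 were 5 of the 16 (all genes 14.4%), and the median difference was -0.65 (all genes 0.08). Both called genes encode FXYD proteins, small membrane proteins that regulate the sodium pump. Fxyd1 had 8.99, 8.30, 8.10 and 8.46 in LEC replicates 1 to 4 and 5.71, 1.06, 4.44 and 0.06 in BEC replicates 1 to 4, which put LEC at least 18.5-fold above BEC (adjusted p = 0.00909 by limma). Fxyd6 had 8.84, 10.20, 10.16 and 10.79 in LEC replicates 1 to 4 and 4.22, 4.75, 6.82 and 5.66 in BEC replicates 1 to 4, which put LEC at least 23.6-fold above BEC (adjusted p = 0.00118). Neither gene's groups overlapped, and both calls held under all alternatives run (adjusted p up to 0.0342 for Fxyd1 and 0.0175 for Fxyd6). Slc12a7, a potassium chloride cotransporter gene, was 6.24 ± 2.15 in LEC and 9.30 ± 0.19 in BEC and missed the threshold (adjusted p = 0.0726).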

How the data were processed

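RNA of sorted LEC and BEC from 4 mice was amplified and hybridised to 8 single-colour arrays. The deposited values are log2 signals; MAS5 is named in the submitters' processing notes, with no version or detection calls given in the sources used here. Array scaling by the authors shows in the deposited log2 values, whose linear signals have a 2% trimmed mean of 100.04 on every array. Names came from the platform annotation and were matched by gene number to the RefSeq annotation of GRCm38.p6, which changed no Kcn symbol.

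Samples were grouped by title. A gene was represented by its brightest probe set over the 8 arrays, and 13259 genes passed a dimness filter (4 or more arrays over their 40th percentile). Limma 3.58.1 under R 4.3.3 fitted cell type alone (lmFit and trended eBayes), two-sided, with Benjamini-Hochberg adjustment over all genes. The fit was checked on simulated data with independent normal noise. That check does not cover pairing by mouse, unequal spread of the groups or RNA of other cells. The number of arrays limits the precision. Folds given as at least N-fold raise dim values to the background of their array. Mice are separate animals, so the spread is between animals together with amplification and array.

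The series design gives LEC and BEC as animal-matched pairs. Deviations from the group means correlated at 0.142, 0.0776, 0.181 and 0.0510 for mice 1 to 4. For LEC and BEC arrays of different mice the correlations ran from -0.148 to 0.0747. The highest of these, between BEC replicate 4 and LEC replicate 3, exceeded that of mouse 4. The members, gene lists, tests and background level were chosen with earlier results of these data known. Named genes are the called ones, the 10 with the highest mean, the 10 uncalled with the lowest p, a fixed list of vessel and gut channel genes (15 reported) and the member with the highest mean of a subfamily. Partner lists are named where called, and other names were chosen after their values were seen.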

Additional observations from a re-analysis of the deposited data

Results flagged for a closer look

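Within a group of 4 arrays, a value was singled out where its gap to the nearest other array, as a share of the group's range, passed Dixon's 95% critical value. Of 46 groups examined 5 met this, and chance gives about 1 in 20. Kcnj2 in BEC was 0.26 in replicate 3, with 5.91 to 6.92 in the others. Kcnj8 in BEC was 5.53 in replicate 2, with 7.85 to 8.15 in the others. Kcnc1 in LEC was 7.64 in replicate 1, with 6.22 to 6.42 in the others. Kcnk2 in BEC was -1.95 in replicate 2, with 2.51 to 3.12 in the others, all below background. The median correlation of LEC replicate 1 with its own group was 0.603, with 0.745 to 0.746 for the other LEC arrays. These medians share pairwise correlations and are not independent, so the critical value and the 1 in 20 do not hold for this item.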

How the results depend on the processing

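Over 10 alternatives of scaling, filter, probe set choice, background floor, variance model and pairing, Kcn genes higher in LEC numbered 2 except with equal hybridisation controls (1, Kcnk5 lost), and those lower in LEC numbered 2 or 3. A replicate block for the mouse left the same 4 Kcn genes called, and 534 genes in all against 540. Leaving out each array in turn gave 2 Kcn genes higher in LEC each time, 1 to 3 lower, and 352 to 556 genes in all. The count lower in LEC was 1 without LEC replicate 2, BEC replicate 1 or BEC replicate 4, and the lowest total was without BEC replicate 2. The split of all calls, 234 higher and 306 lower in LEC, was 162 and 336 with equal array medians and 123 and 280 with equal hybridisation controls, where the median difference of all genes was -0.20 and -0.31. Kcnk3 turned to -0.011 without BEC replicate 4 and was at most 1.51, without LEC replicate 1. The causes were not tested. Kcn genes above background numbered 19 to 25 in LEC and 26 to 31 in BEC under other background levels or any probe set. Signal near background limits most members: a difference among them could not be measured.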

Other observations

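Some genes had a further probe set that read differently from the one taken for the gene, and these were picked after their values were seen. A probe set of Kcnh3, a voltage-gated channel gene of brain, read 7.69, 6.55, 7.04 and 6.97 in LEC replicates 1 to 4 and 3.92, 5.79, 4.94 and 1.36 in BEC replicates 1 to 4. Its groups did not overlap, but it was not called in the limma fit of every probe set (difference 3.06 ± 0.92, adjusted p = 0.101), and the probe set taken for the gene gave 0.21 ± 0.75. A probe set of Kcnma1, the large-conductance calcium-activated channel gene, read 5.02, 3.19, 3.83 and 4.06 in LEC replicates 1 to 4 and 1.74, -0.03, 0.80 and 2.30 in BEC replicates 1 to 4. It was above background on 3 of 4 LEC arrays and 0 of 4 BEC arrays and did not pass the filter. A probe set of Kcnj15, an inward rectifier gene, averaged 1.12 ± 1.41 in LEC and 4.18 ± 0.60 in BEC (SD, n = 4 each; limma fit of every probe set, adjusted p = 0.204).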
